A study of Mus musculus with 12 samples.

Results

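The comparison described here was between AXL KO and WT cells grown in normoxia, 3 libraries of each, chosen by their sample titles from the 12 libraries of the series. The cells are MMTV-NIC mouse breast cancer cells, in which the mouse mammary tumour virus promoter drives an activated Neu (ErbB2) receptor together with Cre recombinase, so both groups carry the Neu oncogene. The WT group keeps Axl, the AXL KO group is labelled as lacking it, and both were held at 21% oxygen. The other 6 libraries, 3 of each genotype at 1% oxygen (hypoxia), were used only where the difference between genotypes was compared across oxygen levels. The genotype tag of 6 samples goes against their titles and was not used. The labels do not say how the knockout was made, whether the AXL KO cells are 1 clone, or whether the 3 replicates of each group were grown as separate cultures. The p-values thus reflect only the scatter of these samples, and that scatter may be technical. For the same reason, loss of AXL and other differences between the WT and AXL KO cell lines cannot be told apart.

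AXL belongs, with TYRO3 and MERTK, to the TAM receptor tyrosine kinases, and its main ligand is GAS6, a vitamin K-dependent protein that bridges the receptor to phosphatidylserine on membranes. In breast cancer AXL is known for roles in invasion, epithelial to mesenchymal transition and metastasis, and it cooperates with HER2, the human counterpart of Neu. Cells that divide, secrete matrix or meet low oxygen use largely separate sets of genes, controlled in part by E2F and MuvB complexes, by ER stress factors and by HIF, and the gene lists below follow those roles.

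Gene counts totalled 45297267 to 48854016 fragments per WT library and 55579433 to 58775422 per AXL KO library. No pair of libraries within a group agreed to within sampling noise (chi-square divided by its degrees of freedom, 7.15 to 36.9). Mitochondrial genes made up 1.34% ± 0.131 (SD, n = 3) of WT counts and 1.35% ± 0.0537 of AXL KO counts (exact permutation test, 2-sided, p = 1). The 10 most abundant genes of a library took 4.07% ± 0.0748 in WT and 8.25% ± 0.19 in AXL KO, and ribosomal protein genes took 3.12% ± 0.0666 and 2.1% ± 0.0576. Both of these shares gave an exact permutation p of 0.1, the smallest that 3 against 3 libraries allow. Markers of the labelled cell type were high in part: the luminal keratins Krt8 and Krt18 stood at 742 to 955 and 1019 to 1189 CPM (counts scaled to library size by TMM, edgeR's cpm) over the 6 libraries, while Krt19 was at 0 counts in all 6. The leukocyte markers Ptprc, Cd3e, Adgre1 and Itgam, the fibroblast markers Lum and Thy1 and the adipocyte marker Adipoq stayed under 0.1 CPM in every library. Other markers of the same types did not. The leukocyte marker Cd68 stood at 12.9, 13.4 and 11.5 CPM in WT and at 64.7, 75.6 and 92.7 CPM in AXL KO. Among fibroblast markers, Pdgfra stood at 37.8 to 60.2 CPM over the 6 libraries. Pdgfrb rose from 15.8, 18.1 and 17.3 CPM to 126, 132 and 139 CPM, and Dcn from 0.368, 0.367 and 0.248 CPM to 11.6, 11.8 and 14.8 CPM. The adipocyte marker Fabp4, a fatty acid carrier, fell from 37.13, 38.86 and 45.61 CPM to 9.402, 10.65 and 14.77 CPM (−1.80, adjusted p = 1.83e-06). Only 2 of the 6 adipocyte markers were tested, and the one beside Fabp4 rose (7.55). The endothelial marker Kdr, a VEGF receptor, rose from 0.116, 0.0612 and 0.0952 CPM to 4.06, 3.3 and 4.68 CPM (5.42, adjusted p = 1.18e-09). Cdh5, also an endothelial marker, went the other way, from 0.31, 0.204 and 0.209 CPM to 0 counts in AXL KO (edgeR adjusted p = 5.2e-05). Only 3 of the 8 endothelial markers were tested, and of these 1 rose and 2 fell. The endothelial markers Pecam1 and Emcn were at most 0.136 CPM. The summed level of the 8 endothelial markers ran from 0.897 to 1.317 CPM in WT and from 3.692 to 5.358 CPM in AXL KO, and that of the 6 adipocyte markers from 37.23 to 45.69 and from 18.38 to 24.19 CPM. Most of the endothelial sum in AXL KO was Kdr, and nearly all of the adipocyte sum in WT was Fabp4. The part of other cells in the results below was not tested. These are bulk libraries, in which fewer cells of a type and less RNA per cell cannot be told apart.

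Axl itself was the check of the labels. It was counted 51682, 47960 and 57291 times in the WT libraries and 164, 189 and 200 times in the AXL KO libraries, or 1001, 977.7 and 1091 CPM against 3.186, 3.542 and 3.773 CPM. For Axl (ENSMUSG00000002602, GRCm38 chromosome 7, 25757273 to 25788705) the log2 fold change of AXL KO over WT was −8.19 ± 0.10 (SE; edgeR adjusted p = 1.61e-14). The AXL KO libraries kept a few CPM, and the groups were far apart. The rest of the TAM family moved the other way in part. Mertk, the receptor known from clearance of dying cells, rose from 11.85, 13.6 and 12.32 CPM to 59.91, 60.53 and 72.62 CPM (2.35 ± 0.09, adjusted p = 1.44e-10). Gas6, the ligand, had 1 count in the 3 WT libraries together and 5912, 6577 and 8210 counts in the AXL KO libraries, a ratio of about 20100 (95% counting interval 3610 to 794000). Pros1, the ligand of TYRO3 and MERTK, rose by 0.56 ± 0.08 (adjusted p = 1.78e-05, but 0.259 in the fit of all 12 libraries) and Tyro3 fell by 0.35 on the log2 scale (adjusted p = 0.000621).

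**Figure D1:**
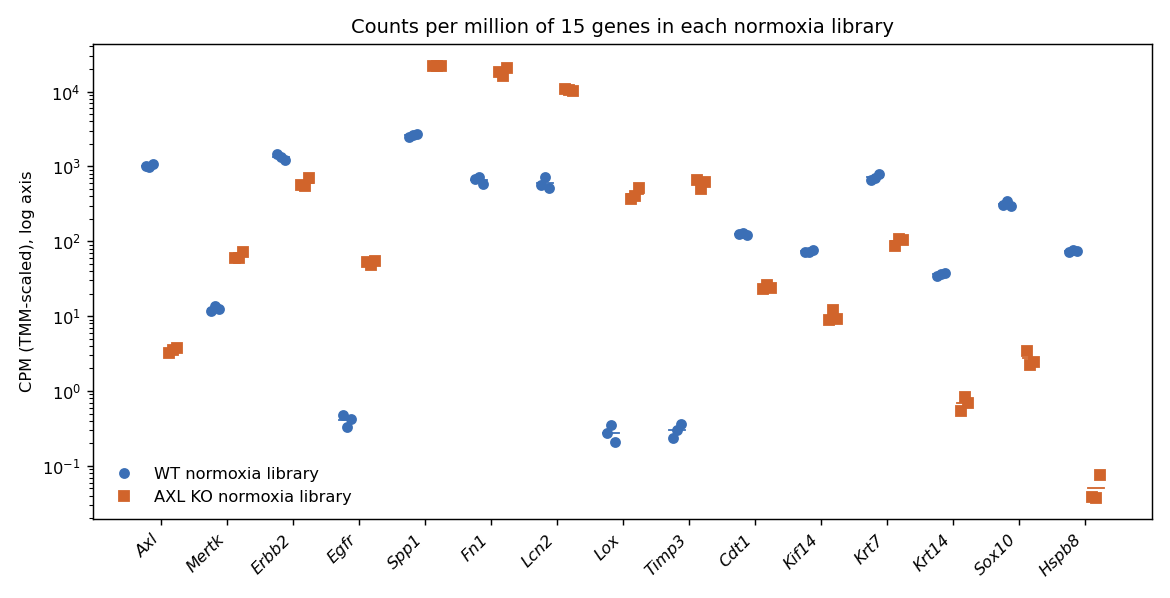
CPM (TMM-scaled, logarithmic axis) of 15 genes in each of the 3 WT (blue circles) and 3 AXL KO (orange squares) normoxia libraries, with short lines at the group means. For every gene shown the 3 libraries of a group lie close together and the groups do not overlap, with Axl at a mean of 1023 CPM in WT and 3.5 CPM in AXL KO. These genes were picked from those named in the text, and the groups did not overlap for 82.1% of all tested genes.

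Most genes differed between the cell lines. Of 15866 genes tested with edgeR's quasi-likelihood test, 12610 (79.5%) were called at an adjusted p under 0.05, 6187 (39%) higher and 6423 (40.5%) lower in AXL KO. Called changes of at least 2-fold were found in 5864 genes (37%), 2855 higher (18%) and 3009 lower (19%), and 1922 genes passed 8-fold. The libraries of the groups did not overlap for 82.1% of the tested genes. Over all tested genes the log2 fold change had a median of −0.04. Scaling by library size alone moved this median to −0.28 and the split of calls to 4717 higher and 8045 lower (37% higher, against 49.1%). Under that scaling the list medians were lower, and those of the TCA cycle, mitochondrially encoded, ATF4, junction, ERK, Notch and angiogenic lists, all close to 0, took the other sign. With so many genes called, the number of called members of a gene list says little by itself, and the lists below are read by direction and by size of change against 39% higher, 40.5% lower and a median of −0.04.

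The sharpest differences were genes read in only 1 of the cell lines. Among 9795 protein-coding genes with at least 10 CPM in either group, 18 had at most 3 counts over the 3 AXL KO libraries, 11 of them 0, and 61 had at most 3 counts over the 3 WT libraries, 26 of them 0. Ckap4, an ER shaping protein that also serves as a surface receptor, had 0 counts in WT and 7779, 7136 and 7920 counts in AXL KO (151.1, 133.7 and 149.4 CPM), which makes it at least 7390-fold higher against a floor of 3 counts over the group. Ccnd2 (ENSMUSG00000000184, chromosome 6, 127125162 to 127152193), the cyclin D2 gene, had 0 counts in WT and 6390, 6246 and 6061 in AXL KO, at least 6050-fold higher. Ctsz, a lysosomal cathepsin, was at least 5830-fold higher, the glypican Gpc4 at least 5720-fold and the BMP-type growth factor Gdf6 at least 5570-fold. The other genes of largest rise were Fndc1 (at least 2840-fold), Fam189a2 (at least 2520-fold), Klhl13 (at least 2240-fold) and Fbxl7 (at least 2070-fold), together with the scavenger receptor Colec12, Setbp1 and the aminopeptidase Anpep, which had 1, 1 and 2 counts in WT against group sums of 35101, 22636 and 36061.

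In the other direction, Cdkn2b (ENSMUSG00000073802, chromosome 4, 89306289 to 89311032), which encodes the CDK4 and CDK6 inhibitor p15, had 1267, 1384 and 1394 counts in WT and 0 in all 3 AXL KO libraries, at least 1390-fold lower. Its neighbour Cdkn2a, which encodes p16 and p19ARF, had 653, 664 and 801 counts in WT and 0 in AXL KO, at least 727-fold lower. The pregnancy-specific glycoprotein gene Psg20 was at least 1680-fold lower, and the zinc finger gene Zfp251 at least 1520-fold lower. The X-linked genes 3830403N18Rik, Xlr and Klhl4 were at least 1490-fold, 1400-fold and 1200-fold lower, and Pex5l, Cyp2d22 and Sfmbt2 at least 1130-fold, 1130-fold and 910-fold lower. Gpr149, an orphan receptor, fell from 148.3, 139.9 and 154.7 CPM to 2 counts in all, and the transporter gene Slco4a1 from 72.54, 65.42 and 67.38 CPM to 1 count. Adam22 fell from 288.7, 283.7 and 261.3 CPM to 0.09713, 0.01874 and 0 CPM (−12.75 ± 0.20, adjusted p = 1.76e-13). Xist, the RNA that silences 1 X chromosome in female cells, stood at 0.03874, 0.1223 and 0.01904 CPM in WT and at 514.6, 452.4 and 553.7 CPM in AXL KO (13.02 ± 0.19, adjusted p = 1.23e-13). The Y-linked genes Ddx3y, Kdm5d, Uty and Eif2s3y had 0 counts in all 6 libraries.

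The largest gains in CPM among called genes were, in large part, in genes of secreted proteins. Spp1 (osteopontin, a secreted integrin ligand) rose from 2466, 2621 and 2678 CPM to 21640, 22180 and 21850 CPM (3.08 ± 0.09, adjusted p = 7.77e-12). It was the most abundant gene of every AXL KO library, at 1.97% to 2.06% of counts, where Eef1a1 led every WT library. Fn1, fibronectin, rose from 688.1, 712.9 and 589.1 CPM to 17970, 15880 and 20480 CPM (4.77 ± 0.13, adjusted p = 5.21e-12). Lcn2, an iron-siderophore carrier secreted by inflamed epithelium, rose from 565.3, 726.6 and 514.2 CPM to 10660, 10630 and 10020 CPM (4.12 ± 0.13, adjusted p = 3.54e-11). The iron genes Cp (ceruloplasmin, 1.41 ± 0.09) and Fth1 (ferritin heavy chain, 0.90 ± 0.08), the acute-phase genes C3 (complement C3, 4.44 ± 0.13) and Lbp (LPS-binding protein, 5.17 ± 0.14) and the mineralisation inhibitor Mgp (5.80 ± 0.15) completed the 8 genes of largest gain in CPM, with adjusted p of 2.36e-07 or less. In each of these 8 genes the lowest AXL KO library lay above the highest WT library. They were selected as large called gains, and the groups did not overlap for 82.1% of all tested genes, so this lends them no further weight.

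The largest losses in CPM included genes of translation, the actin cytoskeleton and the cell cycle. Eef1a1, the elongation factor that delivers tRNA to the ribosome, fell from 8051, 8850 and 8450 CPM to 5696, 5670 and 5721 CPM (−0.57 ± 0.08, adjusted p = 1.91e-05). Actb, beta-actin, fell from 2868, 2760 and 3344 CPM to 1109, 1549 and 1292 CPM (−1.18 ± 0.12, adjusted p = 2.67e-06), and the actin crosslinker Flna by 0.67 on the log2 scale (adjusted p = 1.66e-06). Ccnd1, cyclin D1, fell from 2069, 1997 and 2312 CPM to 998.2, 1233 and 1071 CPM (−0.95 ± 0.09, adjusted p = 6.78e-07). Serinc3 (−1.03), the galectin gene Lgals1 (−1.36) and S100a6 (−0.97) fell as well, with adjusted p of 7.93e-06 or less, and Axl was the remaining gene of the 8 largest losses.

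Genes of DNA replication and cell division were lower in AXL KO as a broad block. The 8 lists for these roles held 156 different genes, all of which passed the filter on low counts. Of these 145 fell, 128 of them by at least 2-fold, 6 rose and 5 were not called, beside the 40.5% and 19% of all genes that fell and that fell at least 2-fold. Their median log2 fold change was −1.89. The lists were chosen with earlier results of these data known, so the comparison with all genes is descriptive. To show what lies before the start of such genes, promoters were read from RefSeq (GRCm38.p6) for the 60 of 74 tested replication and repair genes and the 46 of 56 chromosome segregation genes that matched by symbol. An E2F site, searched on both strands as TTTGGCGC, TTTCCCGC, TTTCGCGC or TTTGCCGC, was found in 27.8% of 72 windows of the replication and repair genes (250 bases before to 50 after a start) and in 2.3% of all 32851 windows. The CHR element TTTGAA, through which MuvB complexes bind late cell cycle genes, was found in 66% of 53 windows of the segregation genes and in 17.9% of all windows. These matches are descriptions of letters and not of binding. The 250 bases before the start are printed for Gins3 (chr8:95633309-95633558, plus strand) and Cep55 (chr19:38054791-38055040, plus strand), the members of smallest p with a match in the last 100 bases, and capitals mark the E2F site of Gins3 and the CHR element of Cep55, both on the opposite strand.
Gins3: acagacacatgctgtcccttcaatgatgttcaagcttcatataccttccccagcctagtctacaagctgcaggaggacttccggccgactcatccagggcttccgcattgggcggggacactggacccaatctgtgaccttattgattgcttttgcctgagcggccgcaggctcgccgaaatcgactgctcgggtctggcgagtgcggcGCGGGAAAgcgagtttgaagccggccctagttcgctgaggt
Cep55: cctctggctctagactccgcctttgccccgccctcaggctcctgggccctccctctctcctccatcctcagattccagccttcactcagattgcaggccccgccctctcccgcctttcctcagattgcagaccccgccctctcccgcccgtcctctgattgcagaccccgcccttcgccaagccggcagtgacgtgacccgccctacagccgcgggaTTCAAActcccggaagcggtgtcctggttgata

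Replication begins with origin licensing, and all 20 genes of origin licensing and the replicative helicase fell at least 2-fold (median −2.26). Cdt1, which loads the helicase at origins, fell from 126.9, 129.4 and 121.9 CPM to 22.83, 25.94 and 24.06 CPM (−2.38 ± 0.07, adjusted p = 7.71e-12). Gins3, a helicase subunit whose promoter is printed above, fell from 24.15, 25.18 and 22.28 CPM to 4.604, 5.472 and 4.66 CPM (−2.28 ± 0.10, adjusted p = 2.47e-10). The origin recognition subunit Orc6 (−2.13), the helicase subunit Mcm7 (−1.86) and Gins1 (−2.99) fell as well. Of 24 polymerases and fork factors 23 fell (median −1.57), among them the flap endonuclease Fen1, from 94.58, 103.4 and 93.33 CPM to 10.04, 13.33 and 10.7 CPM (−3.10 ± 0.10, adjusted p = 4.67e-11), the polymerase subunits Pola2 (−2.58) and Pold1 (−2.32), the primase Prim1 (−2.29) and the clamp loader Rfc1 (−1.30). Of 10 genes of deoxynucleotide supply 9 fell (median −1.61). They included the ribonucleotide reductase subunits Rrm2 (−2.06) and Rrm1 (−1.61), thymidine kinase Tk1 (−2.55), thymidylate synthase Tyms (−2.38), Dut (−1.61), Dck (−1.29), Dtymk (−0.93) and the dNTP-degrading Samhd1 (−0.45). Rrm2b, the reductase subunit that p53 induces, was not called (−0.08, adjusted p = 0.453) but was with library size alone (−0.32, adjusted p = 0.0102) and without AXL KO normoxia replicate 1 (−0.20, adjusted p = 0.0148). All 20 genes of homologous recombination and Fanconi repair fell (median −2.46), from the end-resecting nuclease Exo1, at 34.01, 37.57 and 34.36 against 2.37, 3.28 and 2.604 CPM (−3.68 ± 0.11, adjusted p = 1.33e-11), to Xrcc2 (−2.39), Fancd2 (−2.66) and the helicase Blm (−1.90).

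Mitosis genes fell to a like extent. All 20 kinetochore and checkpoint genes fell (median −2.02), 19 of them at least 2-fold. Cenpe, the kinesin that moves chromosomes to the spindle equator, stood at 197.1, 179.4 and 191.6 CPM in WT and at 35.05, 40.69 and 32.24 CPM in AXL KO (−2.40 ± 0.08, adjusted p = 6.5e-11). Ska1 (−2.60), Knl1 (−2.02), Incenp (−2.21) and Cenpf (−1.76) fell as well. All 20 spindle and cytokinesis genes fell at least 2-fold (median −1.78). The midbody protein Cep55 fell from 60.7, 62.99 and 67.68 CPM to 10.28, 12.99 and 10.55 CPM (−2.50 ± 0.09, adjusted p = 9.74e-11), and the kinesin Kif14 from 72.02, 72.51 and 75.74 CPM to 8.8, 12.13 and 9.075 CPM (−2.88 ± 0.11, adjusted p = 2.9e-10). Ect2 (−2.47), Anln (−1.94) and Racgap1 (−2.0), which position and drive the cleavage furrow, also fell. Of 16 condensin and cohesin genes 15 fell and 1 rose (median −1.09). The condensin subunits Ncapd3 (−2.21), Smc2 (−2.28), Ncapg (−2.0) and Smc4 (−1.07) and the cohesin protector Sgo1 (−2.44) were among those that fell. Stag2, named here after its value was seen, was the one that rose (0.54).

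**Figure D2:**
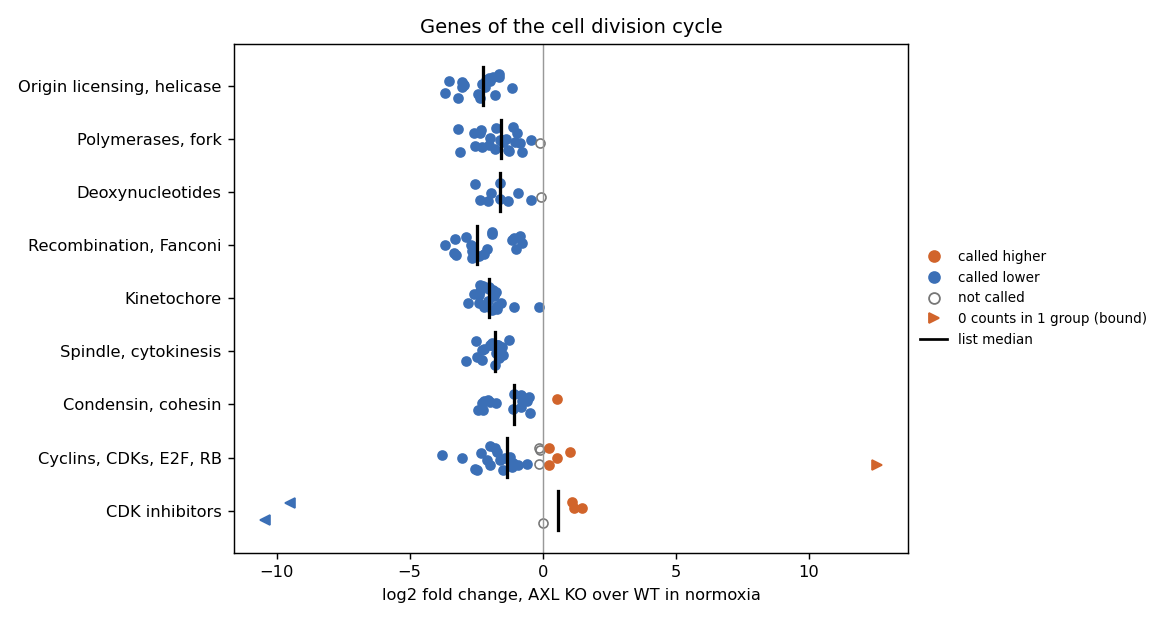
log2 fold change (AXL KO over WT in normoxia) of each tested gene in 9 lists of the cell division cycle. Filled points passed the test, triangles are bounds for genes at 0 counts in 1 group, and bars are list medians. The first 7 lists lie almost wholly to the left of 0, and the CDK inhibitors lie on both sides.

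The genes that start and stop this cycle moved unevenly. Of 26 cyclins, CDKs, E2F and RB genes 18 fell and 5 rose (median −1.34). Cyclin E genes fell, with Ccne1 at 31.79, 35.21 and 32.62 against 6.955, 8.715 and 7.377 CPM (−2.11 ± 0.09, adjusted p = 4.16e-10) and Ccne2 by 2.56 on the log2 scale. The repressor E2f7 (−3.02) and the phosphatase Cdc25c (−1.98), which activates CDK1, fell as well. The D cyclins went in opposite directions, since Ccnd1 fell as given above while Ccnd2 went from 0 counts to 124.1, 117.1 and 114.4 CPM. Of the 6 CDK inhibitors tested 3 rose: Cdkn1b (p27), from 72.17, 73.63 and 65 CPM to 196.4, 180.5 and 202.4 CPM (1.46 ± 0.07, adjusted p = 8.12e-10), Cdkn1a (p21), from 104.5, 103.1 and 111.1 CPM to 232.4, 225.9 and 224.4 CPM (1.10 ± 0.06, adjusted p = 2.13e-09), and Cdkn2c (1.18 ± 0.08). Cdkn2a and Cdkn2b were the pair that fell to 0. Cdkn2d was not called (0.01 ± 0.09, adjusted p = 0.952), although with library size alone it was called lower (−0.24, adjusted p = 0.0337), and Cdkn1c failed the filter.

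Of 18 p53-related genes 13 rose and 4 fell (median 0.75). Bbc3, which encodes the death-promoting BCL2 protein PUMA, rose from 9.51, 8.929 and 10.3 CPM to 54.1, 52.87 and 53.28 CPM (2.48 ± 0.07, adjusted p = 1.19e-11). The death receptors Fas (2.82) and Eda2r (6.07) and the antiproliferative Btg2 (1.71) rose beside Cdkn1a. Bax, also a p53 target, fell from 91.08, 90.55 and 91.41 CPM to 58.92, 61.92 and 51.3 CPM (−0.67 ± 0.07, adjusted p = 2.06e-06), so the list did not move as 1 block. Within the BCL2 family 6 genes rose and 7 fell of 14 tested.

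AXL KO cells at 21% oxygen held more RNA of hypoxia genes. All 22 HIF targets outside glycolysis rose, 16 of them at least 2-fold (median 2.06), and 18 of 20 glycolysis genes rose with none falling (median 1.01). Among the oxygen sensing genes themselves 8 of 9 rose and 1 fell. Hif1a, the oxygen-labile subunit of HIF-1, stood at 131.4, 138.4 and 142.9 CPM in WT and at 321.9, 300 and 310.5 CPM in AXL KO (1.18 ± 0.06, adjusted p = 1.8e-09). Epas1, which encodes HIF-2 alpha, rose from 3.835, 4.322 and 3.447 CPM to 56.53, 71.25 and 88.49 CPM (4.22 ± 0.17, adjusted p = 6.37e-09). Their partners Arnt (0.45) and Arnt2 (1.45) rose too, as did Vhl (1.57), which marks HIF for destruction, and the prolyl hydroxylases Egln1 (0.59), Egln2 (0.71) and Egln3 (3.09). Hif1an, the asparaginyl hydroxylase that blocks HIF activity, was the one that fell (−0.84 ± 0.07, adjusted p = 1.39e-07), and Hif3a failed the filter.

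Among the HIF targets, Lox, which crosslinks collagen, rose from 0.2712, 0.3466 and 0.2095 CPM to 364.2, 402.7 and 520.7 CPM (10.60 ± 0.21, adjusted p = 1.51e-11). P4ha1, a collagen prolyl hydroxylase, rose from 66.77, 67.01 and 80.19 CPM to 520.6, 509.5 and 603.7 CPM (2.93 ± 0.09, adjusted p = 4.11e-11). Ddit4, an inhibitor of mTORC1, Bhlhe40, a clock repressor, and P4ha2 rose by 2.07, 2.28 and 2.87 on the log2 scale. In glycolysis, Pfkfb3, which makes the activator of phosphofructokinase, rose from 7.574, 6.972 and 8.132 CPM to 87.19, 79.35 and 110.6 CPM (3.61 ± 0.13, adjusted p = 4.84e-10). Phosphofructokinase itself rose in Pfkl (1.89) and Pfkp (1.58), and Gpi1 (2.24) and Hk1 (1.44) stood beside them. The HIF core ACGTG was found, on either strand, in 50% of 54 promoter windows of the 36 matched genes of these lists (of 42 tested) and in 19.6% of all windows. The same share, 50%, held it among the genes of ER folding and export described next. The 250 bases before P4ha1 (chr10:59323046-59323295, plus strand) are printed with the core in capitals, on the opposite strand.
P4ha1: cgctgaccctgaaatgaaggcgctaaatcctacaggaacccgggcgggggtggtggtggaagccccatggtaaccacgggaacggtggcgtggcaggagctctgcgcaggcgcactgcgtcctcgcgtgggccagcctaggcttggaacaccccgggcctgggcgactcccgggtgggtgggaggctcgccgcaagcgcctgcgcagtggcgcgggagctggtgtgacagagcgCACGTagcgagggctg

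Mitochondrial energy genes moved less. Of 22 genes of the TCA cycle and pyruvate entry 11 rose and 9 fell (median 0.15), with only Me2, a malic enzyme, past 2-fold (−1.86). Of 20 complex I subunits 3 rose and 11 fell (median −0.23), the largest fall being that of Ndufs1, from 177.8, 193 and 189.5 CPM to 96.76, 103.4 and 97.88 CPM (−0.91 ± 0.06, adjusted p = 1.74e-08). Complexes III to V gave 4 up and 9 down of 20 (median −0.11), with Uqcrq (−1.02) and Cyc1 (−0.89) lower and Atp5o (0.63) and Atp5d (0.58) higher. Of 7 mitochondrially encoded genes tested, mt-Nd6 (0.87) and mt-Co1 (0.50) rose and 5 were not called. Fat and sterol synthesis rose in larger part: 15 of 21 genes of fatty acid synthesis and storage rose and 4 fell (median 0.47), led by Lpin1 (1.92), the desaturase Scd1 (1.72), Acaca (1.47) and Elovl5 (1.44). Of 22 sterol genes 13 rose and 4 fell (median 0.39).

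The path of secreted proteins through the cell was higher in AXL KO, while the machinery that makes and removes cytosolic proteins was lower. Of 20 ER chaperone and unfolded protein response genes 18 rose and none fell (median 0.92). Hsp90b1, the ER form of HSP90, rose from 712, 741.6 and 790.1 CPM to 2215, 1754 and 1810 CPM (1.36 ± 0.09, adjusted p = 2.77e-08). Sel1l, the scaffold of ER-associated degradation, rose from 188.5, 187.7 and 177.3 CPM to 878, 650.5 and 716.2 CPM (2.02 ± 0.10, adjusted p = 2.59e-09). The stress transcription factor Xbp1 (1.22), P4hb (1.44) and Pdia4 (1.67) rose too. Of 23 genes of ER entry and exit 21 rose and 1 fell (median 0.92). The retrieval receptor Kdelr3 rose from 6.489, 8.46 and 7.637 CPM to 81.57, 77.16 and 83.35 CPM (3.42 ± 0.09, adjusted p = 4.78e-12), the coat subunit Sec23a from 40.85, 44.79 and 36.51 CPM to 214.4, 206.7 and 206.1 CPM (2.36 ± 0.08, adjusted p = 2.29e-11). Creb3l1, an ER-bound transcription factor of secretory cells, rose from 0.3099, 0.3262 and 0.3809 CPM to 22.65, 16.77 and 21.38 CPM (5.89 ± 0.17, adjusted p = 1.19e-11). The ER stress element, CCAAT and CCACG 9 bases apart on either strand, to which ATF6 and NF-Y bind, was in 21.1% of 38 promoter windows of the 36 matched genes of these lists (of 43 tested) and in 0.1% of all windows. It is shown in capitals, once on each strand, in the 250 bases before Hsp90b1 (chr10:86705445-86705694, minus strand).
Hsp90b1: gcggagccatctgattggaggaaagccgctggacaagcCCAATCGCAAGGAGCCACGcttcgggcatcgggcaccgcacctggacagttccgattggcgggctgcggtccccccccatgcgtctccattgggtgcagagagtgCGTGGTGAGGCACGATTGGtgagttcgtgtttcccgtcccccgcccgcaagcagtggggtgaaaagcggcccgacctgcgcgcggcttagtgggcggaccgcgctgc

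Lysosomal genes rose with the secretory genes. Of 22 tested 18 rose and 2 fell (median 1.05). Ctsb, a cathepsin, rose from 672.9, 740 and 676.3 CPM to 1852, 2046 and 2212 CPM (1.55 ± 0.08, adjusted p = 2.3e-09), and Npc2 (1.33), which carries cholesterol out of the lysosome, rose beside Ctsz. In contrast, of 21 ribosome biogenesis genes 19 fell and none rose (median −0.99). The nucleolar protein Nop56 fell from 185.4, 166.2 and 204.5 CPM to 45.01, 40.05 and 30.07 CPM (−2.27 ± 0.14, adjusted p = 1.45e-07). Nolc1 (−1.85), the RNA polymerase I subunit Polr1b (−1.51), Rrp1b (−0.91) and Npm1 (−0.79) fell as well. Of 28 cytosolic ribosomal protein genes 18 fell and 4 rose (median −0.33), with Rps20 at 551.6, 602.2 and 556 against 234.6, 244.3 and 240.4 CPM (−1.25 ± 0.06, adjusted p = 1.39e-09), then Rpl18 (−1.06) and Rpl8 (−0.91). Reads of ribosomal protein genes can be shared with pseudogene copies, and these values are therefore less certain.

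Of 20 cytosolic aminoacyl-tRNA synthetases 16 fell and 1 rose (median −0.46), led by Rars (−1.36), Farsa (−1.23) and Hars (−1.05). The amino-acid stress genes that share regulation by ATF4 split, with 8 up and 7 down of 22 (median 0.07): Ddit3 (2.48) and Nupr1 (1.58) rose, while the serine synthesis enzymes Phgdh (−1.35) and Psph (−1.49) and Cth (−1.91) fell. Of 24 proteasome subunits 20 fell and 1 rose (median −0.52). Psma5 fell from 111.6, 120.3 and 126.4 CPM to 47.19, 51.65 and 53.21 CPM (−1.24 ± 0.07, adjusted p = 3.81e-09), and Psmb3 (−1.06) and Psmc3 (−0.94) were close to it. Of 17 heat shock genes 12 fell and 3 rose (median −0.73). The mitochondrial chaperonin Hspd1 (−1.38), the co-chaperone Stip1 (−1.30) and Hsph1 (−1.59) fell. Hspb8, a small heat shock protein, stood apart at 71.84, 76.57 and 74.79 CPM in WT and 0.03885, 0.03748 and 0.07547 CPM in AXL KO (−10.45 ± 0.14, adjusted p = 2.32e-14), and Hspb1 rose (2.07).

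**Figure D3:**
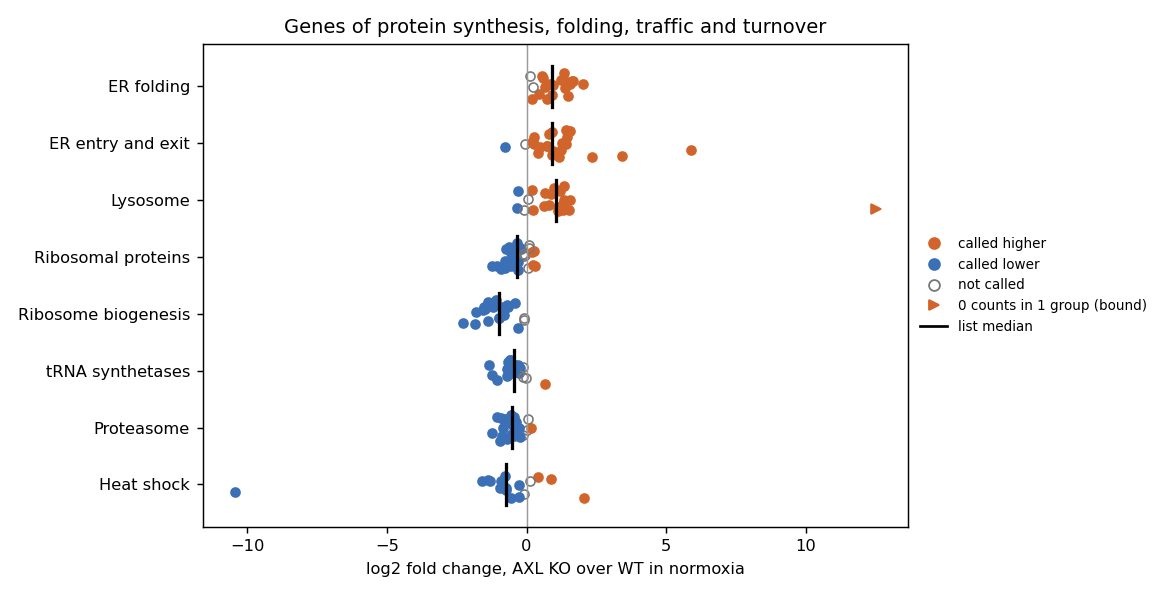
log2 fold change (AXL KO over WT in normoxia) of each tested gene in 8 lists of protein synthesis, folding, traffic and turnover. Filled points passed the test, the triangle is a bound for a gene at 0 counts in WT, and bars are list medians. The upper 3 lists have medians of 0.92 to 1.05 and the lower 5 have medians of −0.99 to −0.33.

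Matrix genes differed by class. Of 13 fibrillar and associated collagen genes tested 10 rose and 2 fell (median 3.06). Col11a1 rose from 0.2324, 0.4689 and 0.3999 CPM to 454.7, 466.2 and 570.5 CPM (10.40 ± 0.17, adjusted p = 4.64e-13), Col5a1 from 43.1, 40.3 and 43.38 CPM to 590.9, 528.5 and 622.1 CPM (3.78 ± 0.08), and Col6a2 (4.76) and Col1a1 (4.58) from low WT levels. Col5a2, which pairs with Col5a1 in collagen V, went the other way, from 61.71, 56.12 and 63.97 CPM to 2.253, 2.493 and 2.396 CPM (−4.67 ± 0.09, adjusted p = 3.07e-13). Of 17 genes that hydroxylate or crosslink collagen 14 rose and 3 fell (median 1.62), including Loxl1 (4.88), P3h3 (7.46) and P3h4 (3.28) beside Lox and P4ha1. Of 14 matricellular and other glycoprotein genes 11 rose and 2 fell (median 2.54), among them Postn (10.14), Vcan (2.63) and Dcn (5.28) with Fn1 and Spp1. Dcn and Pdgfrb also served as fibroblast markers, and both rose, while the fibroblast markers Lum, Thy1 and Col3a1 were at 0 to 0.213 CPM in every library and Pdgfra fell (−0.44). The summed level of the 8 fibroblast markers ran from 71.64 to 79.04 CPM in WT and from 181.4 to 197 CPM in AXL KO.

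The basement membrane list split, with 11 genes up and 9 down of 21 (median 0.53). The collagen IV pair fell together, Col4a1 from 193.9, 203.8 and 202.2 CPM to 3.458, 2.511 and 3.434 CPM (−6.00 ± 0.10, adjusted p = 1.79e-13) and Col4a2 from 335.9, 346 and 347.6 CPM to 5.789, 4.873 and 5.811 CPM (−5.97 ± 0.08, adjusted p = 3.06e-14). The laminin subunit Lamb3 (−3.40) fell, while the linker nidogen Nid1 rose from 0.09685, 0.06116 and 0.05713 CPM to 27.57, 30.4 and 38.58 CPM (8.76 ± 0.23). Of 18 proteases and inhibitors of the matrix 10 rose and 4 fell (median 0.53). Mmp14, the membrane collagenase, had 3, 1 and 2 counts in WT and 9836, 11753 and 12254 counts in AXL KO (12.33 ± 0.17, adjusted p = 2.38e-14), and its inhibitor gene Timp3 rose from 0.2324, 0.3058 and 0.3618 CPM to 659.7, 497.6 and 614.7 CPM (10.93 ± 0.17, adjusted p = 3.1e-13). Mmp15 (3.03) and Mmp3 (3.10) rose as well. Of 16 integrin genes 11 rose and 3 fell (median 0.88), with Itgb4, the laminin receptor of hemidesmosomes, at 96.15, 103.8 and 91.81 against 360.5, 342.3 and 376.2 CPM (1.89 ± 0.07), and Itga1 (4.06), Itga5 (1.36), Itga7 (2.21) and Itgb8 (2.51) higher too.

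Epithelial genes did not move as a single programme. Of 8 keratin genes tested 6 fell and none rose (median −2.88). Krt14, the basal keratin, fell from 34.79, 36.76 and 37.12 CPM to 0.5439, 0.8246 and 0.6981 CPM (−5.71 ± 0.12, adjusted p = 4.93e-13), and Krt7 from 662.2, 693.9 and 785 CPM to 85.77, 108.8 and 104.3 CPM (−2.84 ± 0.10, adjusted p = 1.2e-10). Krt80 (−4.35) fell too, and Krt20 was at least 30.9-fold lower. Krt8 (−0.16 ± 0.08, adjusted p = 0.0854) and Krt18 (−0.09 ± 0.07, adjusted p = 0.247) were not called. Their highest AXL KO libraries lay within the range of WT, but with library size alone both were called lower (−0.40, adjusted p = 0.000344, and −0.34, adjusted p = 0.000388), and Krt8 was called without AXL KO normoxia replicate 2 (−0.22, adjusted p = 0.0312). The adhesion markers Epcam (22.6 to 27.3 against 6.63 to 8.31 CPM) and Cdh1 (10.7 to 13.9 against 5.64 to 6.75 CPM) were low in both groups and fell by 1.65 and 0.97 on the log2 scale. Desmosome genes split, 5 up and 4 down of 9, since Dsp (−3.08), Pkp3 (−3.19), Dsg2 (−2.41) and Dsg3 (−1.98) fell and Dsc2 (3.86), Perp (1.82), Jup (1.47), Pkp2 (0.88) and Pkp1 (0.52) rose. Of 20 tight and adherens junction genes 8 rose and 9 fell (median 0.00), with Cldn4 (−2.88) and the epithelial splicing factor Esrp2 (−1.99) lower and Tjp3 (2.98) and N-cadherin, Cdh2 (1.28), higher.

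Mesenchymal genes and the factors of epithelial to mesenchymal transition rose in 7 of 10 tested and fell in 3, down to −2.83 (median 0.88). The other 5 listed genes, Acta2, Tagln, Cdh11, Fap and Foxc2, failed the filter, at group means of at most 0.1585 CPM. The genes named next are among those that rose. Twist2 had 1 count in the WT libraries together and 1871, 2034 and 1902 counts in AXL KO, a ratio of about 5640 (95% counting interval 1010 to 223000). Twist1 (1.57), Zeb1 (0.97) and Snai2 (1.71) rose from levels already above 2 CPM in WT, and the peptidase Mme rose from 63.98, 70.07 and 67.47 CPM to 2283, 2307 and 2658 CPM (5.17 ± 0.09, adjusted p = 1.88e-13). Among mammary lineage regulators 11 rose and 4 fell of 17 (median 1.07). Sox10, a factor of stem-like and basal mammary cells, fell from 309, 340 and 295.5 CPM to 3.458, 2.23 and 2.472 CPM (−6.86 ± 0.14, adjusted p = 3.63e-12) and the luminal factor Tfap2c from 18.3, 21.14 and 18.47 CPM to 1.34, 0.7871 and 0.9245 CPM (−4.25 ± 0.15). Sox9 (1.95) and the basal factor Trp63, with 0, 4 and 0 counts in WT and 791, 734 and 855 in AXL KO (9.05 ± 0.31), rose. Markers of basal cells thus went both ways, with Krt14, Sox10 and Mylk (−2.57) lower and Trp63 higher, while Krt5, Krt17 and Acta2 were at or near 0 in both groups. Of 10 milk and secretory genes tested 7 rose and 3 fell, with Lcn2, Ltf (5.09) and Spint2 (2.49) higher and Aqp5 (−2.42) and Clu (−3.3) lower.

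**Figure D4:**
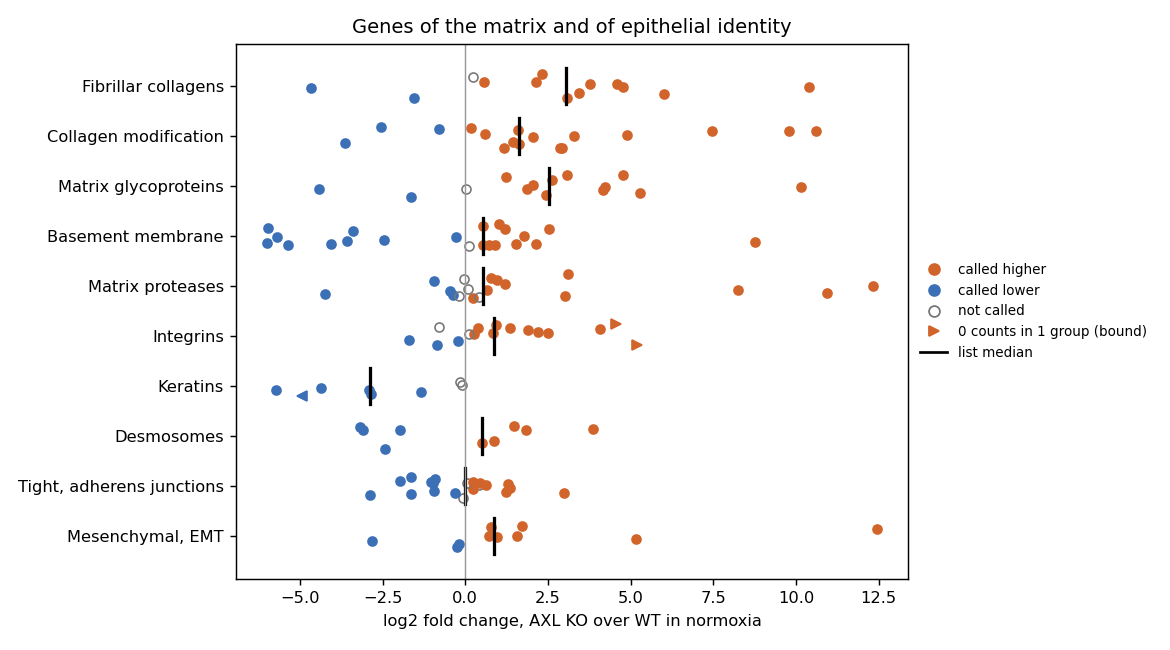
log2 fold change (AXL KO over WT in normoxia) of each tested gene in 10 lists of matrix and epithelial identity. Filled points passed the test, triangles are bounds for genes at 0 counts in 1 group, and bars are list medians. Fibrillar collagens (median 3.06) and keratins (median −2.88) lie at the ends, while basement membrane, desmosome and junction genes lie on both sides of 0.

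Receptor genes upstream of growth signals changed in both directions. Erbb2, the gene of the receptor that the transgene supplies in activated form (Neu), fell from 1475, 1337 and 1217 CPM to 571.6, 543.1 and 707.9 CPM (−1.14 ± 0.11, adjusted p = 8.53e-07). In the fit of all 12 libraries, with its wider spread, Erbb2 was not called (adjusted p = 0.194). The files do not separate transgene from endogenous reads. Egfr, its dimerisation partner, rose from 0.4842, 0.3262 and 0.419 CPM to 53.64, 47.62 and 54.62 CPM (6.97 ± 0.13, adjusted p = 1.94e-13). Of the ligands of this family, Areg (2.29) and Nrg2 (1.02) rose and Btc fell (−1.79), and in all 5 of 11 tested genes rose and 5 fell. Of 18 other receptor tyrosine kinases 14 rose and 3 fell (median 1.35). Fgfr1 rose from 283.8, 298.6 and 292.5 CPM to 785.9, 861.5 and 853.8 CPM (1.51 ± 0.07, adjusted p = 3.53e-10), Pdgfrb from 15.79, 18.12 and 17.33 CPM to 126, 132.3 and 138.9 CPM (2.96 ± 0.07, adjusted p = 2.22e-12), and Flt1 (5.07) and Ntrk2 (7.92) from under 1.3 CPM. The collagen receptor Ddr2 fell from 57.99, 49.95 and 53.76 CPM to 1.651, 1.256 and 1.377 CPM (−5.24 ± 0.11, adjusted p = 4.93e-13). Genes that report ERK signalling split, 8 up and 7 down of 16 (median 0.11), with Egr1 (3.00), Spry1 (4.47), Dusp6 (1.28) and Phlda1 (1.03) higher and Dusp4 (−1.07) lower.

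Genes of secreted developmental signals were called in both directions, beside 39% higher and 40.5% lower of all tested genes. With 79.5% of all tested genes called, the counts of called members say little by themselves. Of 23 TGF-beta and BMP genes tested 17 rose, 12 of them at least 2-fold, and 5 fell, 3 of them at least 2-fold (median 1.01, lowest −7.06). Those named from this list are all among the genes that rose. Tgfb1 rose from 28.14, 31.31 and 27.16 CPM to 173.8, 181.6 and 193.5 CPM (2.66 ± 0.07, adjusted p = 5.98e-12), with Tgfb3 (2.87), the co-receptor Tgfbr3 (2.46) and the activin trap Fst (4.11), and Bmp4 was at least 911-fold higher. Of 21 WNT genes 12 rose and 6 fell (median 0.47): Wnt5a, the non-canonical ligand, was at least 1480-fold higher at 29.63, 26.46 and 31.07 CPM, the receptors Fzd1 (4.10) and Fzd8 (1.92) and the target Axin2 (2.72) rose, and the antagonist Sfrp1 fell (−1.61). In the Notch pathway 7 rose and 2 fell of 13 (median 0.19). The receptor gene Notch4 fell from 99.42, 103.4 and 104.1 CPM to 6.566, 5.922 and 7.056 CPM (−3.97 ± 0.08, adjusted p = 3.52e-13), whereas Notch1 (1.21), Notch3 (4.93) and the target Hes1 (2.43) rose. Of 19 angiogenic factors 9 rose, 7 of them at least 2-fold, and 6 fell, 3 of them at least 2-fold (median 0.19, lowest −3.12). Angpt1 (3.18), Pdgfc (3.82), Nrp1 (3.06) and Vegfc (1.82) were among those that rose, and those that fell are not named here. Of 12 IGF genes 6 rose and 5 fell (median 0.30), Igfbp4 (2.19) and Igfbp7 (2.38) being higher and Igf2bp1 lower (−5.22).

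Immune-related genes went in opposite directions by class. Of 23 interferon-stimulated genes tested 17 fell and 1 rose (median −0.95). The one that rose, named after its value was seen, was the RNA sensor Ifih1 (0.64). The RNA-sensing synthetase Oas1a had 283, 343 and 273 counts in WT and 0, 4 and 6 in AXL KO (−6.49 ± 0.34, adjusted p = 4.34e-09), and Oasl2 (−5.56), Oasl1 (−5.09), Oas3 (−4.08) and Bst2 (−1.04) fell as well. Of 16 genes of class I antigen presentation 13 rose and 2 fell (median 0.76). H2-K1 rose from 237.9, 249.8 and 250.3 CPM to 524.2, 618.8 and 608 CPM (1.25 ± 0.07, adjusted p = 6.27e-09), and the peptide transporter genes Tap1 (2.13) and Tap2 (0.87), H2-T23 (3.3) and H2-M3 (1.52) rose. Class I genes are close copies of one another, so reads may be missing from some of them. Of 16 NF-kappaB genes 11 rose and 3 fell (median 1.08), led by Nfkbiz, at 17.78, 16.88 and 13.45 against 92.16, 92.94 and 91.24 CPM (2.52 ± 0.09, adjusted p = 1.04e-10), with Bcl3 (1.88), Tnfaip3 (1.64), Nfkbie (1.5) and Relb (1.22).

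Among 14 chemokines tested 8 rose and 5 fell (median 0.90). The neutrophil attractant Cxcl5 rose from 22.24, 19.14 and 27.8 CPM to 162.9, 239 and 164.4 CPM (3.03 ± 0.18, adjusted p = 2.95e-07), Cx3cl1 rose (2.58), Cxcl12 was at least 490-fold higher, and Ccl9 fell (−0.98). Of 14 interleukins and colony stimulating factors 4 rose and 8 fell (median −0.51). All 4 that rose and 2 of those that fell changed at least 2-fold, and the lowest log2 fold change was −8.18. Both genes given next are among those that rose. The alarmin Il33 rose from 1.24, 1.305 and 1.39 CPM to 470.7, 621.2 and 684 CPM (8.81 ± 0.18, adjusted p = 1.27e-11) and the interleukin-1 antagonist Il1rn from 0.9104, 1.142 and 0.7618 CPM to 312.5, 376.9 and 396.2 CPM (8.59 ± 0.14, adjusted p = 4.36e-13). Of 12 checkpoint genes 6 rose and 4 fell. The phagocytosis inhibitor Cd47 rose from 54.16, 57.77 and 50.47 CPM to 435, 362.6 and 389 CPM (2.87 ± 0.08, adjusted p = 8.52e-12), Vsir rose (4.43), and the adenosine-producing Nt5e fell (−1.82). Of the leukocyte markers only 3 of 14 passed the filter. The summed level of the 14 markers ran from 62.27 to 68.75 CPM in WT and from 111.2 to 140.7 CPM in AXL KO, with Ptprc, Cd3e, Adgre1 and Itgam at or near 0. Cd68, a lysosomal protein, rose (2.63), Lyz2 fell (−4.84) and Cd14 was not called (−0.09, adjusted p = 0.279) but was with library size alone (−0.33, adjusted p = 0.00109).

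The same genotypes were compared at 1% oxygen to see which differences belonged to both oxygen levels. Here a model over all 12 libraries was used, in which the WT hypoxia libraries spread more widely (biological coefficient of variation 0.382) than the other groups (0.0565 to 0.0894). The comparisons at 21% and 1% oxygen share no library. In hypoxia 63% of 16767 genes were called. Of the 7269 genes called at both levels 6665 (91.7%) had the same sign, 604 had opposite signs with a called interaction (3.6% of all genes tested), and the size of the genotype difference itself differed between oxygen levels for 4830 genes (28.8%). Leaving out WT hypoxia replicate 1 raised that number to 8417. Axl differed alike at both levels, by −7.98 in hypoxia.

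Cell division genes differed between the genotypes in normoxia and much less in hypoxia. The median CPM of the 156 division genes, here scaled over 12 libraries, was 51.4, 54.9 and 56.2 in WT normoxia and 14.8, 20.6 and 16.9 in AXL KO normoxia. It was 15.9, 13.8 and 14.4 in WT hypoxia and 15.1, 19.1 and 18.5 in AXL KO hypoxia. WT normoxia was therefore alone at a high level, and the other 3 groups overlapped. Single genes followed this in part. Kif14 stood at 65.5, 66.2 and 69.4 CPM in WT normoxia, 8.09, 11.2 and 8.34 in AXL KO normoxia, 9.05, 7.36 and 8.64 in WT hypoxia and 6.18, 11 and 10 in AXL KO hypoxia. Cdt1 stood at 64.3 CPM in WT hypoxia replicate 1, above the 28.2 and 27.1 CPM of replicates 2 and 3 and the 28.3 to 28.7 CPM of AXL KO hypoxia, and below the 112 to 118 CPM of WT normoxia. In hypoxia 59 of the 156 genes were higher and 40 lower in AXL KO (median 0.01), where 63% of all 16767 genes were called. The split of all genes by direction in hypoxia is not given here, so the balance of these members cannot be set against it. The difference of the genotype effect between oxygen levels was called for 134 of them, against 28.8% of all genes, and for 133 it was lower in normoxia. Without WT hypoxia replicates 2 and 3 this number was 141, but that fit has a lone WT hypoxia sample and assumes that it varies like the other groups.

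Lists that rose in normoxia went several ways in hypoxia. The counts below stand beside 63% of all genes called in hypoxia and 28.8% called by the interaction test. The split of all genes by direction in hypoxia is not given here, so the lists are read by their medians. The glycolysis list, with a median of 1.01 in normoxia, had 6 genes up and 4 down of 21 in hypoxia (median −0.05), and 17 of these 21 differed between oxygen levels by the interaction test. ER folding went from a median of 0.92 to −0.06, with 18 of 20 members differing. The HIF targets outside glycolysis kept a positive median in hypoxia (1.45, against 2.06 in normoxia), with 19 of 22 up and 11 differing, and lysosomal genes had medians of 1.05 and 1.07. Chemokines had a median of 0.90 in normoxia and −3.03 in hypoxia, with 10 of the 15 members in that fit differing. Fibrillar collagens (3.06 and 1.35), matrix glycoproteins (2.54 and 2.13), proteasome subunits (−0.52 and −0.65) and interferon-stimulated genes (−0.95 and −0.98) had medians of the same sign at both levels. The fit of 12 libraries tested 1 more glycolysis, chemokine and lysosomal gene and 2 more collagens than the fit in normoxia, so the medians of these lists do not cover quite the same members.

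**Figure D5:**
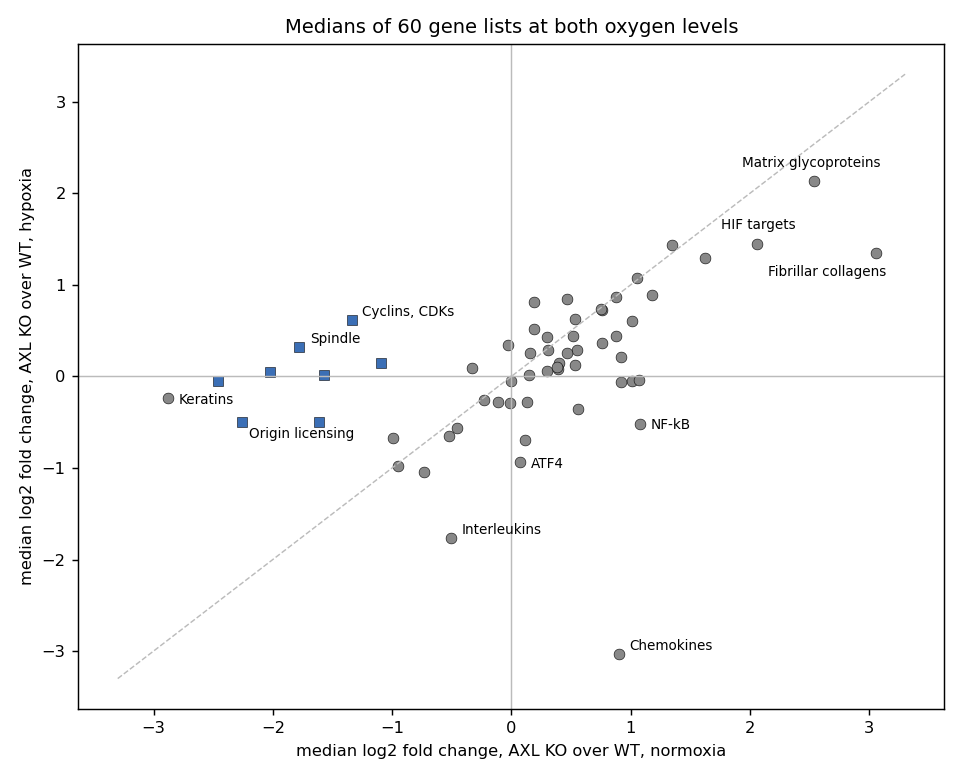
Median log2 fold change (AXL KO over WT) of 60 gene lists in normoxia (horizontal axis) and hypoxia (vertical axis), with the 8 cell division lists as blue squares and equality as a dashed line. The squares lie between −2.46 and −1.09 in normoxia and between −0.5 and 0.62 in hypoxia, and chemokines lie lowest on the vertical axis at −3.03.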

How the data were processed

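RNA-seq of MMTV-NIC cells was analysed in 6 libraries, 3 per genotype, grouped by sample title. The authors deposited raw gene counts of fragments, made per the submitters' processing notes with STAR 2.5.1b and featureCounts 1.4.6 on GRCm38. Per the file headers the counter was featureCounts 1.6.0 with Ensembl release 93, counting on the reverse strand, fragments with both ends mapped, without multimapping reads. Close gene copies can therefore lose reads. Of 54232 gene identifiers 54165 were named from the reference annotation.

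Counts were tested with edgeR 4.0.16 (filterByExpr, TMM, robust quasi-likelihood, Benjamini-Hochberg adjustment, R 4.3.3). The filter kept 15866 genes. The fit has 4 residual degrees of freedom. The difference between oxygen levels came from a fit of all 12 libraries. Fold changes of genes at 0 counts in a group are bounds against 3 counts over the group, and ratios of genes with 1 to 3 counts carry 95% intervals. Intervals and bounds cover counting error only. Scripts were tested on simulated counts. Alternatives used RLE factors, library size alone, other filters, DESeq2 1.42.0, limma-voom (limma 3.58.1), a minimum fold, a replicate block and each library left out.

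Gene lists and members were chosen with earlier results of these data known. Named genes were Axl, 12 protein-coding genes in each direction with the largest fold (at least 10 CPM in the higher group, no overlap), the 8 largest gains and 8 largest losses in CPM, up to 5 members of smallest p per list, all members of lists of at most 10 genes, and members at 0 counts in a group. Other named genes were chosen after their values were seen. Promoter windows came from RefSeq tables of GRCm38.p6. Some genes that this rule names are not reported here.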

Additional observations from a re-analysis of the deposited data

Results flagged for a closer look

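Among the genes named above, 20 differed significantly between AXL KO and WT at both oxygen levels but in opposite directions, and the interaction term of the edgeR fit of 12 libraries was called for each. Over all genes 3.6% met these conditions. Values are the log2 difference between genotypes in normoxia minus that in hypoxia, with its adjusted p from edgeR.

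Of these genes 10 were lower in AXL KO in normoxia and higher in hypoxia. They included the furrow protein Anln (−2.58, adjusted p = 0.000111), the helicase Blm (−3.08, adjusted p = 1.1e-05), Ccnd1 (−2.01, adjusted p = 0.00305), Cdc25c (−2.55), Cenpf (−2.60), Dck (−1.94), Fancd2 (−3.26), Ncapg (−2.54), Samhd1 (−0.73) and Sgo1 (−3.21). For Ccnd1 the WT hypoxia libraries stood at 267, 91.7 and 161 CPM and the AXL KO hypoxia libraries at 344, 374 and 372 CPM. The WT libraries were the more scattered, and the groups did not overlap. In hypoxia the libraries of the groups overlapped for 7 of the 20 genes, Anln, Ncapg, Sgo1, Pdgfrb, Snai2, Nfkbie and Tnfaip3, and did not for 13. The share of all genes without overlap was taken only in normoxia (82.1%), and the 20 genes were selected as called in hypoxia. The number without overlap therefore lends these genes no further weight. For Anln the WT hypoxia libraries stood at 258, 139 and 147 CPM against 235, 321 and 299 CPM in AXL KO hypoxia, so WT replicate 1 lay within the AXL KO range.

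The other 10 were higher in AXL KO in normoxia and lower in hypoxia. The largest difference was that of Cxcl5, the neutrophil attractant (7.65, adjusted p = 3.43e-07), which rose by 3.04 in normoxia and fell by 4.61 in hypoxia. Its WT hypoxia libraries stood at 85.9, 84.2 and 120 CPM and its AXL KO hypoxia libraries at 3.61, 3.78 and 4.51 CPM. The protease Mmp3 (5.79, adjusted p = 9.89e-05), the receptor Pdgfrb (3.55), Tnfaip3 (2.87), Dusp6 (2.5), Nupr1 (2.49), Snai2 (2.45), the ER stress factor Xbp1 (2.01), Nfkbie (1.97) and mt-Co1 (0.79) followed. Tnfaip3 rested on an uneven group, with WT hypoxia at 88.9, 377 and 116 CPM against 88.9, 80.9 and 80.4 CPM in AXL KO hypoxia, and its difference without WT hypoxia replicates 2 and 3 was 1.75.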

How the results depend on the processing

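Of 289 named genes tested, 284 were called, and with DESeq2, RLE size factors, limma-voom and no filter each of those fitted kept its direction and call. In the fit of all 12 libraries 7 lost their call, namely Erbb2, Pros1, Notch1, Pdgfra, Pkp1, Rrp1b and mt-Nd6, and 46 lost it with a minimum fold of 2. With library size alone the 5 genes not called (Krt8, Krt18, Cd14, Rrm2b and Cdkn2d) were called lower. Krt8 was also called with the replicate block (adjusted p = 0.04). A test against a minimum fold of 2 called 4704 genes, 2313 higher and 2391 lower. With at least 5 CPM in 3 libraries, which tests fewer genes, 3197 genes changed at least 2-fold. Leaving out 1 library gave 12259 to 12699 called genes, 6012 to 6211 higher, 6243 to 6488 lower and 5933 to 6172 at least 2-fold, with Axl between −8.24 and −8.12. It gave 3582 to 8417 genes for the difference between oxygen levels, the highest without WT hypoxia replicate 1. The share of ribosomal protein genes differed by −1.05 to −0.981 points and that of the most abundant genes by 4.08 to 4.26. The mitochondrial share differed by 0.017 points with all 6 libraries, beside an SD of 0.131 in WT and 0.0537 in AXL KO. With 1 library left out this difference ranged from −0.0535 (without WT normoxia replicate 3) to 0.0765, and was −0.011 without AXL KO normoxia replicate 2.

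Values near 0 changed sign, and the cause was not tested beyond the scaling itself. Cdkn2d was −0.24 with library size alone (then called, adjusted p = 0.0337), −0.02 with the strict filter and −0.07 to 0.11 with 1 library left out (−0.06 and −0.00 in others). With library size alone the medians were −0.14 for ERK feedback, −0.1 for the TCA cycle, −0.11 for mitochondrially encoded genes, −0.24 for junctions, −0.17 for ATF4, −0.06 for Notch and −0.05 for angiogenic genes. The ATF4 median was −0.05 with the strict filter and −0.16 to 0.21 with 1 library left out (−0.02 without WT normoxia replicate 2), and that of junctions −0.05 to 0.11 (−0.01 without AXL KO normoxia replicate 1). With 1 library left out the Notch median ranged from 0.14 to 0.33 and the angiogenic median from 0.07 (without WT normoxia replicate 3) to 0.37 (without WT normoxia replicate 2), and with the strict filter they were 0.5 and 0.76.

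A fit blocked on replicate number called 12547 genes, 12444 of them also called in the same direction without it. Correlations of deviations between same-numbered libraries were 0.175, 0.017 and −0.14, so the numbers were not taken to pair the samples. With 3 libraries per group, exact tests of shares cannot go below 0.1.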

Other observations

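The genotype difference in normoxia was spread unevenly over the chromosomes. On chromosome 12, 340 of 561 tested genes were higher in AXL KO and 108 lower (median log2 fold change 0.45), and chromosomes 10 (0.43) and 14 (0.42) had like medians. Chromosomes 3 and 19 had medians of −0.42, with 190 higher and 470 lower of 837 genes on chromosome 3, and chromosomes 8 (−0.33) and 1 (−0.31) were also low. The X chromosome had a median of −0.01, although Xist was found in AXL KO libraries and hardly in WT. Copy number was not measured in these files.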
